A study of Mus musculus with 18 samples.

Results

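Border-associated macrophages are the resident macrophages of the surfaces of the brain, and a set of 10 genes that mark them was followed in the mouse choroid plexus: Mrc1, Cd163, Lyve1, Pf4, Cbr2, F13a1, Folr2, Adgre1, Cd68 and Lyz2. The members were taken by name from a table of 50584 genes, and all 10 were present and had enough counts to be tested, among 16598 genes tested. RNA was sequenced from choroid plexus, a tissue of the cerebral ventricles and the source of cerebrospinal fluid. The mice were of the strain MRL/lpr, in which the lpr mutation of the death receptor gene Fas brings on autoimmunity like that of lupus, and of the strain MRL/+, the control on the same background with intact Fas. There were 6 MRL/lpr and 3 MRL/+ libraries at each of 2 ages, 12 and 16 weeks. The labels name no treatment, and whether each library is a different animal is not stated in them, so p-values reflect the spread between samples that may be technical. The comparison across strains asks whether genes of resident macrophages differ in a tissue where MRL/lpr mice form lymphoid structures.

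Macrophages of the meninges, the perivascular spaces and the choroid plexus take up proteins, lipids and debris from the fluid around them, and depend on the growth factor receptor Csf1r. In mice, those rich in the scavenger receptors Mrc1, Cd163 and Lyve1 and in Folr2 are known as long-lived residents. Those rich in MHC class II, which are common in the choroid plexus stroma, are replaced in part by blood monocytes. Adgre1, Cd68 and Lyz2 are broader genes, shared by resident macrophages and by cells that arise from monocytes.

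The region around the start of each gene is shown for 5 members, chosen to hold both broader genes and others. Of these, 2 (Cd68 and Lyz2) are of the broader type, whose members passed the test between strains. The other 3 (Mrc1, Cbr2 and F13a1) are not of that type. The sequences are from RefSeq on GRCm38.p6, read 5′ to 3′ on the strand of the gene. Of the 10 members, 8 had an entry, and Adgre1 and Lyve1 are named only. Capitals mark 5 motifs searched on both strands: the PU.1 motif GAGGAAG (in 13.6% of 32851 promoters of the same length), the C/EBP motif TTGCNNAA (10.8%), the MAF motif TGCTGAC (4.67%), the interferon gamma-activated site TTCNNNGAA (8.3%) and the interferon-stimulated response element (3.44%). PU.1, C/EBP and MAF proteins are transcription factors of myeloid cells.
Mrc1, chr2:14229164-14229463, plus strand: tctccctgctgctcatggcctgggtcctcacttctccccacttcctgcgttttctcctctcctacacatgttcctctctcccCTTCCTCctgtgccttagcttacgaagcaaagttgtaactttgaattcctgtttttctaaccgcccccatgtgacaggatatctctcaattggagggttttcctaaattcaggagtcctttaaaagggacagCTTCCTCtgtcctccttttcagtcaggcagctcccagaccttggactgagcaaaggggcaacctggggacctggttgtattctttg
Cbr2, chr11:120731972-120732271, minus strand: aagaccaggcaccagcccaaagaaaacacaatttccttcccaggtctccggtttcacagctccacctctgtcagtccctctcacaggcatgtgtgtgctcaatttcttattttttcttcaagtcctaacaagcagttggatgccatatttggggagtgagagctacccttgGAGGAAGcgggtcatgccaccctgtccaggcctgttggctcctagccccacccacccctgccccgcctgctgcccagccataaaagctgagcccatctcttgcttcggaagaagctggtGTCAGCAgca
F13a1, chr13:37050195-37050494, minus strand: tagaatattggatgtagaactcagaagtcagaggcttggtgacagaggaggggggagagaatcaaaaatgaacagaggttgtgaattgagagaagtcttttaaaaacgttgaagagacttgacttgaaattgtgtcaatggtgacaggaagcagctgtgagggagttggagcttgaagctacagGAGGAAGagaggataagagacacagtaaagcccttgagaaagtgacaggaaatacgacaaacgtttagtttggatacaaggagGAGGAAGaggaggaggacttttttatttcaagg
Cd68, chr11:69666121-69666420, minus strand: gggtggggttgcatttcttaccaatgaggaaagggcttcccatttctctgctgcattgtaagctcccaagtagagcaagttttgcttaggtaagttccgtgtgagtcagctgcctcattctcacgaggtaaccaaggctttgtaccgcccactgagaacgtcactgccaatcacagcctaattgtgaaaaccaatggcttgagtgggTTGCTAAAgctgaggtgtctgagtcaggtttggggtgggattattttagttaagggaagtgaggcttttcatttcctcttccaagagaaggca
Lyz2, chr10:117282223-117282522, minus strand: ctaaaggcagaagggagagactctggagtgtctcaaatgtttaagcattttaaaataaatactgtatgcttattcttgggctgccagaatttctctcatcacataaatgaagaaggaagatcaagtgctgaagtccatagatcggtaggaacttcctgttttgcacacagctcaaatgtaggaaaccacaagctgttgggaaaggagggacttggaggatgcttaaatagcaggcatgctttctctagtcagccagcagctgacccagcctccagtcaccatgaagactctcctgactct
The Mrc1 window and the F13a1 window shown held 2 PU.1 matches each, a second F13a1 window, not printed, held 1, the Cbr2 window held a PU.1 and a MAF match, and the Cd68 window held a C/EBP match. The Pf4 window, not printed, held a PU.1 and a C/EBP match. The Lyz2 and Cd163 windows and both Folr2 windows held none of the 5. A match is a description of the letters in this window.

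The table is of raw read counts, with totals of 11164284 to 14602253 per library. Levels are given as CPM, counts relative to the library size after TMM scaling, which trims extreme log ratios. Some libraries also held transcripts of tissues around the choroid plexus. By marker lists, summed CPM of pineal genes reached 81.5 and those of cerebellum genes 472, and those of skeletal muscle genes 533. The 4 libraries that stood highest in 1 of these sums were MRL/lpr replicates 1 and 4 of 12 weeks and MRL/+ replicate 1 of each age, and each member's strain difference without them is given beside the value over all libraries. Leaving them out does not remove all such transcripts. Among the libraries kept, pituitary genes summed to 85.6 and 88.1 CPM in MRL/lpr replicates 2 and 3 of 12 weeks, against 18.2 in the lowest library. Cerebellum genes summed to 275 CPM in MRL/lpr replicate 1 of 16 weeks.

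Of the broad phagocyte genes, Lyz2 and Adgre1 rose in MRL/lpr at both ages and Cd68 rose at 16 weeks. Lyz2 (chromosome 10, 117277331 to 117282321), the lysozyme of phagocytes, rose 28.7-fold at 12 weeks and 16.7-fold at 16 weeks. Adgre1 (chromosome 17, 57358686 to 57483529), the F4/80 receptor of mouse macrophages, rose 5.54-fold and 7.64-fold. Cd68 (chromosome 11, 69664213 to 69666153), a glycoprotein of lysosomes, rose 6.46-fold at 16 weeks. Since whole tissue was sequenced, more cells of a type and more RNA per cell cannot be told apart. By edgeR's quasi-likelihood test with Benjamini-Hochberg adjustment over all genes, 2 of the 10 members passed at 12 weeks and 3 of 10 at 16 weeks, all in the higher direction. Of all genes tested, 5.01% were called higher at 12 weeks and 8.49% at 16 weeks (6.36% and 11.1% in either direction). The members' median log2 fold change was 1.55 at 12 weeks and 1.17 at 16 weeks, beside -0.013 and 0.025 over all genes tested.

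In the MRL/lpr libraries of 12 weeks, Lyz2 ran from 354 to 2662 CPM with a median of 713, and the 3 MRL/+ libraries held 25.8, 40.1 and 39.3 CPM. In those of 16 weeks it ran from 177 to 1709 CPM with a median of 1069, and the MRL/+ libraries held 79.7, 57.9 and 47.3 CPM. The lowest MRL/lpr library of each age stood above every MRL/+ library. The log2 fold change was 4.84 (SE 0.80, adjusted p 0.0027) at 12 weeks and 4.06 (SE 0.76, adjusted p 0.0032) at 16 weeks. Without the 4 libraries with pineal, cerebellum or muscle transcripts, the value at 12 weeks was 4.29 and did not pass (adjusted p 0.062). At 16 weeks it was 4.32 and passed. Without MRL/lpr replicate 1 of 12 weeks, the highest library, the value at 12 weeks was 4.27 and passed.

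Lyz2 has a near-identical neighbour, Lyz1, which lies 5475 bases away. Lyz1 stood at 5.19 to 93.6 CPM in the MRL/lpr libraries of 12 weeks, and at 0.492 to 24.8 CPM in those of 16 weeks. None of the MRL/+ libraries held more than 1.21 CPM. Reads could be split or lost between the pair, so the Lyz2 level is uncertain by the share that Lyz1 takes.

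Adgre1 ran from 9.75 to 23.7 CPM in MRL/lpr at 12 weeks (median 14.7), and the MRL/+ libraries held 3.24, 2.51 and 2.75 CPM. In the older mice it ran from 8.19 to 39.1 CPM (median 23.3), and MRL/+ held 2.54, 4.0 and 2.71 CPM. The groups did not overlap at either age. The log2 fold change was 2.47 (SE 0.44, adjusted p 0.0040) at 12 weeks and 2.93 (SE 0.45, adjusted p 0.0016) at 16 weeks. At 12 weeks it was 2.61 without the 4 libraries with other tissues' transcripts and did not pass (adjusted p 0.093), and at 16 weeks it was 2.85 and passed.

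Cd68 ran from 4.84 to 21.0 CPM in MRL/lpr at 12 weeks (median 7.98), with 2.48, 3.21 and 2.90 CPM in MRL/+. At the later age it ran from 4.01 to 36.1 CPM (median 17.2), with 3.16, 3.22 and 2.31 CPM in MRL/+. The strains did not overlap at either age, and the MRL/lpr libraries of 12 weeks split into high and low ones. Replicates 1 and 6 held 21.0 and 20.4 CPM and the other 4 libraries at most 8.27 CPM. The log2 fold change was 2.01 (SE 0.64, adjusted p 0.071) at 12 weeks, which did not pass, and 2.69 (SE 0.66, adjusted p 0.015) at 16 weeks. Its size at 16 weeks stayed about the same without any 1 of the 3 MRL/+ libraries of that age, at 2.76, 2.77 and 2.55 without replicates 1, 2 and 3, but its SE rose and the call was lost (adjusted p 0.065, 0.062 and 0.085). The same held without the 4 libraries above (2.79, SE 0.87, adjusted p 0.096), where the value at 12 weeks was 1.80.

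**Figure D1:**
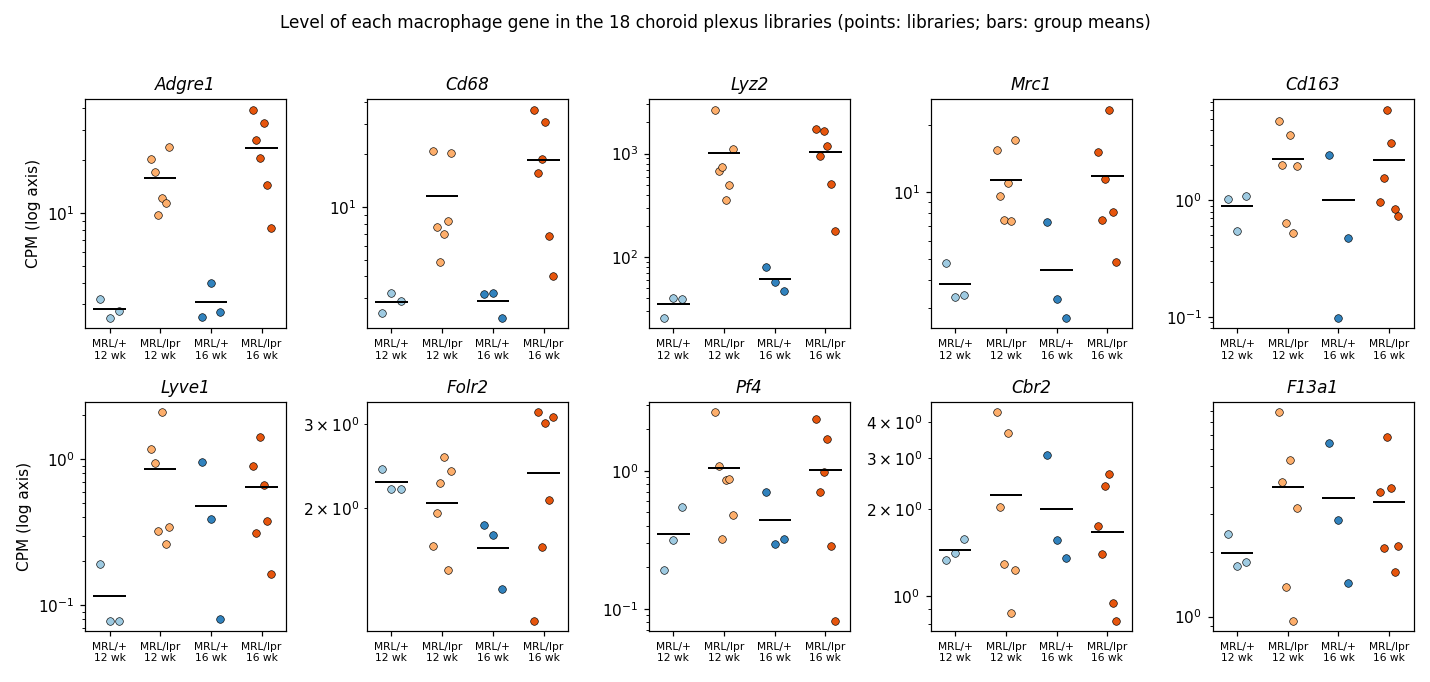
Level of each of the 10 genes in CPM on log axes, 1 point per library, in the 4 groups, with bars at the group means. All MRL/lpr points of Adgre1, Cd68 and Lyz2 stand above the MRL/+ points of the same age, whereas Cbr2, F13a1 and Folr2 overlap between the strains.

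None of the scavenger and uptake receptors passed the test. Mrc1 (chromosome 2, 14229392 to 14332057), the mannose receptor CD206, came nearest. It ran from 7.40 to 17.1 CPM in MRL/lpr at 12 weeks (median 10.2), and the MRL/+ libraries held 4.77, 3.37 and 3.45 CPM. At 16 weeks it ran from 4.83 to 23.4 CPM (median 9.75), and MRL/+ held 7.28, 3.31 and 2.71 CPM. The groups did not overlap at 12 weeks. They overlapped at 16 weeks, where MRL/+ replicate 1 stood above the lowest MRL/lpr library. The log2 fold change was 1.55 (SE 0.46, adjusted p 0.056) at 12 weeks and 1.40 (SE 0.46, adjusted p 0.060) at 16 weeks. With DESeq2 the adjusted p was 0.0072 and 0.015, and with limma's voom 0.0059 and 0.021, so the call on Mrc1 depended on the tool. Without the 4 libraries with other tissues' transcripts the values were 1.66 and 1.99 by edgeR and did not pass (adjusted p 0.26 and 0.084).

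Lyve1 (chromosome 7, 110850607 to 110863239), a hyaluronan receptor shared with lymphatic vessels, had few counts. The 3 MRL/+ libraries of 12 weeks held 5 counts together, and the 6 MRL/lpr libraries held 71. In CPM, MRL/lpr ran from 0.261 to 2.10 with a median of 0.642, and MRL/+ held 0.191, 0.0784 and 0.0784. The groups did not overlap at 12 weeks, and the log2 fold change of 2.76 (SE 0.93, adjusted p 0.088) did not pass. DESeq2 and voom called it (adjusted p 0.046 and 0.017). At 16 weeks MRL/lpr ran from 0.164 to 1.43 CPM with a median of 0.521, and MRL/+ held 0.965, 0.390 and 0.0798. The strains overlapped there (log2 fold change 0.45, SE 0.78, adjusted p 0.72). Without the 4 libraries named above, the values were 2.48 at 12 weeks and 1.51 at 16 weeks, and neither passed (adjusted p 0.41 and 0.36). Of 7 other lymphatic vessel genes, 4 had enough counts to be tested, and Mmrn1 and Ccl21a had 0 counts in every library. The 7 genes summed to 90.5 to 126 CPM in MRL/lpr and 89.1 to 143 CPM in MRL/+. The highest sum was in MRL/+ replicate 1 of 12 weeks, where cerebellum genes summed to 472 CPM. Such a sum can rest on a single well-counted gene, so it does not measure the lymphatic content of either strain.

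Cd163 (chromosome 6, 124304656 to 124330527), the receptor that takes up haemoglobin bound to haptoglobin, overlapped between the strains at both ages. It ran from 0.523 to 4.84 CPM in MRL/lpr and from 0.549 to 1.10 in MRL/+ at 12 weeks. In the older mice it ran from 0.737 to 6.03 CPM in MRL/lpr and from 0.0975 to 2.46 in MRL/+. The differences of 1.35 (SE 0.88, adjusted p 0.40) and 1.12 (SE 0.88, adjusted p 0.39) on the log2 scale were within the spread between libraries. They moved to 0.71 (SE 0.95, adjusted p 0.95) and 2.88 (SE 1.08, adjusted p 0.17) without the 4 libraries with other tissues' transcripts.

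Folr2 (chromosome 7, 101839988 to 101857194), folate receptor beta, differed from the other members in its counts. Of its 1546 exonic bases, 975 overlap exons of the antisense gene Gm10602, and the library kit named in the labels does not mark strand, so reads there cannot be told apart. Folr1, the folate receptor of the choroid plexus epithelium, starts 1136 bases away. Folr2 ran from 1.48 to 2.56 CPM in MRL/lpr at 12 weeks (median 2.11), with 2.42, 2.19 and 2.20 in MRL/+. At 16 weeks it ran from 1.16 to 3.18 CPM (median 2.55), with 1.84, 1.75 and 1.36 in MRL/+. The groups overlapped at both ages (log2 fold change -0.14, SE 0.30, adjusted p 0.81, and 0.52, SE 0.31, adjusted p 0.27), and the values were -0.078 and 0.63 without the 4 libraries.

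The remaining members, a chemokine and a pair of enzymes, did not pass either. Pf4 (chromosome 5, 90772435 to 90773383), a chemokine of platelets that border-associated macrophages also transcribe, ran from 0.322 to 2.67 CPM in MRL/lpr and from 0.191 to 0.549 in MRL/+ at 12 weeks. In libraries of 16 weeks it ran from 0.0819 to 2.39 CPM in MRL/lpr and from 0.292 to 0.702 in MRL/+. The log2 fold changes were 1.56 (SE 0.83, adjusted p 0.29) and 1.23 (SE 0.81, adjusted p 0.32). Leaving out the 4 libraries gave 0.70 and 1.76 (adjusted p 0.95 and 0.34). The platelet gene Ppbp, its neighbour, had at most 1 count in any library.

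Cbr2 (chromosome 11, 120729489 to 120732114), a carbonyl reductase, ran from 0.871 to 4.34 CPM in MRL/lpr at 12 weeks (median 1.66), with 1.33, 1.41 and 1.57 in MRL/+. In libraries of 16 weeks it ran from 0.819 to 2.65 CPM (median 1.57), with 3.07, 1.56 and 1.36 in MRL/+. The log2 fold change was 0.64 (SE 0.50, adjusted p 0.49) at 12 weeks and -0.26 (SE 0.49, adjusted p 0.74) at 16 weeks. Neither the sign at 12 weeks nor that at 16 weeks held without the 4 libraries with other tissues' transcripts (-0.094 and 0.23).

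F13a1 (chromosome 13, 36867178 to 37050244), the catalytic chain of clotting factor XIII, ran from 0.958 to 8.92 CPM in MRL/lpr at 12 weeks (median 3.71), with 2.42, 1.72 and 1.80 in MRL/+. At 16 weeks it ran from 1.61 to 6.86 CPM (median 2.97), with 6.4, 2.83 and 1.44 in MRL/+. The strains overlapped at both ages. The log2 fold change was 1.01 (SE 0.64, adjusted p 0.38) at 12 weeks and -0.05 (SE 0.61, adjusted p 0.96) at 16 weeks. The value at 16 weeks was 0.69 without MRL/+ replicate 1, the high library of that group. Without the 4 libraries the values were 0.52 at 12 weeks and 0.72 at 16 weeks (adjusted p 0.94 and 0.53).

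**Figure D2:**
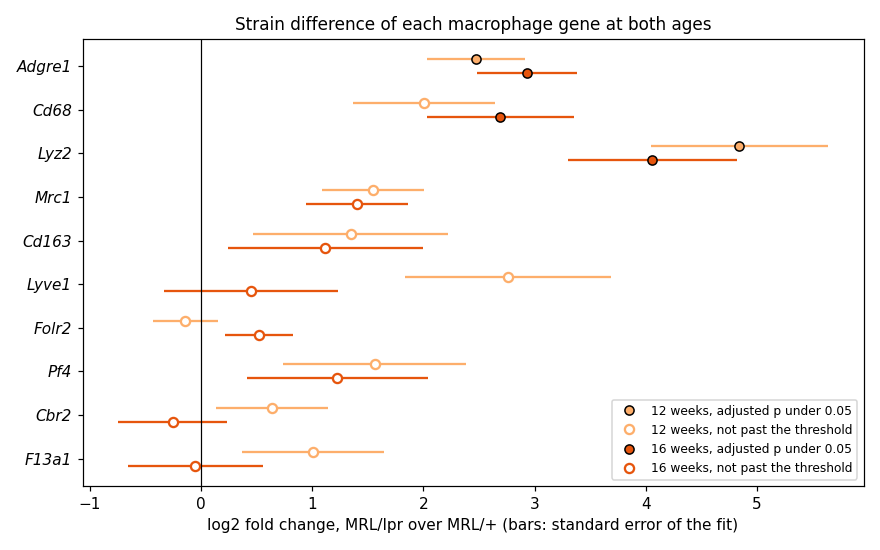
Log2 fold change of MRL/lpr over MRL/+ for each gene at 12 and 16 weeks, with bars of 1 standard error of the edgeR fit and filled points for an adjusted p under 0.05. Filled points are Adgre1 and Lyz2 at both ages and Cd68 at 16 weeks, and the values of Cbr2, F13a1 and Folr2 lie on both sides of 0.

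Counted by overlap, 5 of 10 members stood wholly above MRL/+ at 12 weeks (Mrc1, Lyve1, Adgre1, Cd68 and Lyz2), where 8.59% of all genes tested did. At 16 weeks 3 of 10 did (Adgre1, Cd68 and Lyz2), where 9.91% of all genes did. At an unadjusted p under 0.05, 5 of 10 members were counted at 12 weeks and 4 of 10 at 16 weeks. Of the 16598 genes tested, 3560 and 4773 were.

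Per length of exon, the members spanned a wide range of levels. In RPKM, which is CPM divided by exonic length in kilobases, Lyz2 stood first in every group, at 764 ± 646 (SD, n = 6) in MRL/lpr at 12 weeks and 782 ± 464 at 16 weeks, and at 26.7 ± 6.11 (n = 3) and 46.8 ± 12.6 in MRL/+. Cd68 followed in every group, at 9.17 ± 5.72 and 14.9 ± 10.1 RPKM in MRL/lpr and 2.28 ± 0.293 and 2.30 ± 0.402 in MRL/+. Lyve1 was last in every group, at 0.293 ± 0.245 and 0.220 ± 0.161 RPKM in MRL/lpr and 0.0397 ± 0.0222 and 0.164 ± 0.154 in MRL/+. The order between those ends differed by strain. Adgre1 had rank 3 in MRL/lpr, at 4.86 ± 1.71 and 7.25 ± 3.53 RPKM, and rank 5 in MRL/+, at 0.873 ± 0.115 and 0.950 ± 0.245 RPKM. In MRL/+ at 12 weeks, Folr2 at 1.47 ± 0.0822 and Cbr2 at 1.08 ± 0.0900 RPKM stood above Adgre1 with ranges that did not overlap. In MRL/lpr at both ages, the neighbours in the order from Mrc1 down to Lyve1 overlapped in their ranges, so no 2 adjacent ranks among them are separated. Members farther apart in that order did separate: at 12 weeks Mrc1 and Folr2 stood wholly above Cd163 and Lyve1, and at 16 weeks Mrc1, Folr2 and Cbr2 stood wholly above Lyve1.

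To ask whether a member moved by more or less than a gene that all macrophages express, its log2 CPM was set against that of Csf1r, the receptor of the growth factors CSF1 and IL-34, within each library. Csf1r itself averaged 43.8 ± 21.8 CPM (SD, n = 6) in the MRL/lpr libraries of 12 weeks and 14.5 ± 1.39 (n = 3) in the MRL/+ libraries, a log2 difference of 1.6 (SE 0.47, adjusted p 0.052). For 16 weeks the means were 50.9 ± 27.4 and 13.2 ± 2.40 CPM, a log2 difference of 1.95 (SE 0.48, adjusted p 0.015). Csf1r shares 871 of its 4885 exonic bases with the antisense gene Hmgxb3. The 20 differences, 10 members at 2 ages, were tested by exact two-sided permutation over the 84 splits of 6 and 3 libraries, whose smallest p is 0.0119.

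Relative to Csf1r, Lyz2 was higher in MRL/lpr at both ages, and Cbr2 and F13a1 were lower at 16 weeks. By themselves, Cbr2 and F13a1 had strain differences of -0.26 and -0.05 at 16 weeks and did not pass, whereas Csf1r rose by 1.95. Lyz2 was higher by 3.08 on the log2 scale at 12 weeks and by 2.0 at 16 weeks. Adgre1 was higher by 0.90 at 12 weeks. Cbr2 at 16 weeks stood at -4.72 ± 0.425 in MRL/lpr (SD, n = 6) and -2.70 ± 0.537 in MRL/+ (n = 3), a difference of -2.02, and F13a1 at -3.80 ± 0.684 and -2.07 ± 0.870, a difference of -1.73. In each of these 5 differences, all 6 MRL/lpr libraries stood on 1 side of all 3 MRL/+ libraries, and each had an adjusted p of 0.0476 by the exact permutation test, over 20 differences. Each stood at the smallest p that the splits allow, so the adjusted p of each depended on how many others stood there too. The other 15 did not pass, among them Cbr2 (-1.08) and F13a1 (-0.82) at 12 weeks (exact permutation, adjusted p 0.17 and 0.32). Adgre1 at 16 weeks (0.97, exact permutation, adjusted p 0.068) and Folr2 at 12 weeks (-1.61, adjusted p 0.068) came nearest. Mrc1 moved with Csf1r, by 0.0035 more at 12 weeks (adjusted p 0.99) and 0.44 less at 16 weeks (-0.44, adjusted p 0.40). With the complement genes C1qa, C1qb and C1qc as the reference, 15 of 20 passed, and Lyz2 at 12 weeks (1.22) was the 1 that was higher. Adgre1 at 12 weeks turned to -0.96 by that reference and passed in the lower direction, so its place relative to other macrophage genes depends on the gene it is set against. Without any 1 library, 0 of 20 passed, since fewer splits raise the smallest possible p. Leaving out MRL/+ replicate 1 of 16 weeks brought Cbr2 and F13a1 at 16 weeks to -1.73 and -1.24. No value relative to Csf1r was computed without the 4 libraries with other tissues' transcripts.

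**Figure D3:**
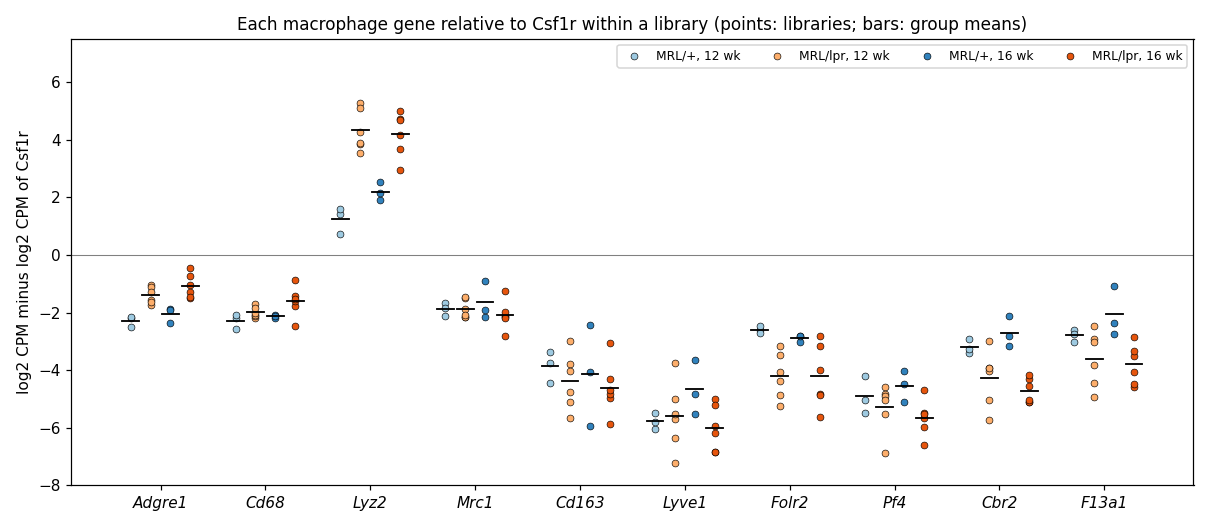
Log2 CPM of each gene minus that of Csf1r in the same library, 1 point per library, with bars at the group means. Lyz2 stands above Csf1r and is higher in MRL/lpr at both ages, and Cbr2 and F13a1 at 16 weeks stand lower in all 6 MRL/lpr libraries than in the 3 MRL/+ libraries.

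Within groups, the members differed in which genes they moved with most closely, without a clean division. After each group's mean was subtracted, log2 CPM were correlated over the 18 libraries, which share depth and scaling between genes, as a description with no test. Adgre1 and Cd68 moved together (Pearson r 0.91, Spearman rho 0.82), and Cd68 moved with Lyz2 (r 0.86, rho 0.91). Cbr2 and F13a1 (r 0.89, rho 0.85), Lyve1 and F13a1 (r 0.87, rho 0.90), and Cd163 and F13a1 (r 0.83, rho 0.80) were also close. Between Cd163, Lyve1, Cbr2 and F13a1 on one side and Adgre1, Cd68 and Lyz2 on the other, r was positive in every pair and ran from 0.27 for Cd163 and Adgre1 (rho 0.27) to 0.56 for Cbr2 and Lyz2 (rho 0.56). Mrc1 and Pf4 belonged to neither side, with r 0.79 and 0.81 against Cd68 and 0.66 and 0.73 against Cbr2. Folr2 had its highest r with any other member at 0.07, with Cd163, and its lowest at -0.47, with Pf4.

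The 3 genes most like each member, among tested genes whose mean log2 CPM reached 1, differed in kind between members. Cd68 was most like Laptm5 (r 0.98, rho 0.95), Inpp5d and Tagln2, of which the first 2 are leukocyte genes. Adgre1 was most like Irf4 (r 0.98, rho 0.97), Samhd1 and Sash3. Lyz2 was most like the C-type lectin genes Clec7a (r 0.98, rho 0.94) and Clec4n, and H2-Ea-ps. Cbr2 was most like Slc6a13 (r 0.96, rho 0.95), Slc22a6 and Ranbp3l, and Lyve1 was most like the same 3 genes, with r 0.88 and rho 0.87 for Slc6a13. Slc6a13, a GABA and taurine transporter, and Slc22a6, an organic anion transporter, are known from cells of the meninges. Mrc1 was most like the collagen genes Col1a1 (r 0.95, rho 0.93) and Col3a1, and Thbd. Among the 3 genes most like F13a1 were Dpysl3 (r 0.92, rho 0.91) and Ptpro (r 0.90, rho 0.84). Cd163 was most like Gpr182 (r 0.90, rho 0.87), Vstm4 and Scn7a, Pf4 was most like Foxd1 (r 0.88, rho 0.81), Map2k3 and Nupr1, and Folr2 was most like Firre (r 0.82, rho 0.80), Pabpn1 and Snapc4.

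Against Slc6a13, r was 0.96 for Cbr2, 0.88 for Lyve1, 0.84 for F13a1, 0.79 for Pf4 and 0.75 for Cd163, and 0.64 for both Mrc1 and Lyz2, 0.57 for Cd68 and 0.47 for Adgre1. Against Csf1r the order was nearly turned round, with r 0.94 for Cd68, 0.87 for Adgre1, 0.78 for Mrc1, 0.74 for Lyz2 and 0.69 for Pf4, and 0.54 for F13a1, 0.50 for Cbr2, 0.44 for Cd163 and 0.34 for Lyve1. Slc6a13 and Csf1r had r 0.52 with each other. Slc6a13 stood at 33.1 and 21.8 CPM in MRL/lpr replicates 1 and 4 of 12 weeks, at 16.7 and 15.3 in replicates 3 and 4 of 16 weeks and at 22.6 in the first MRL/+ replicate of 16 weeks. The other libraries held 11.6 or less. These include the libraries in which Cbr2, F13a1, Cd163 and Lyve1 were highest.

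**Figure D4:**
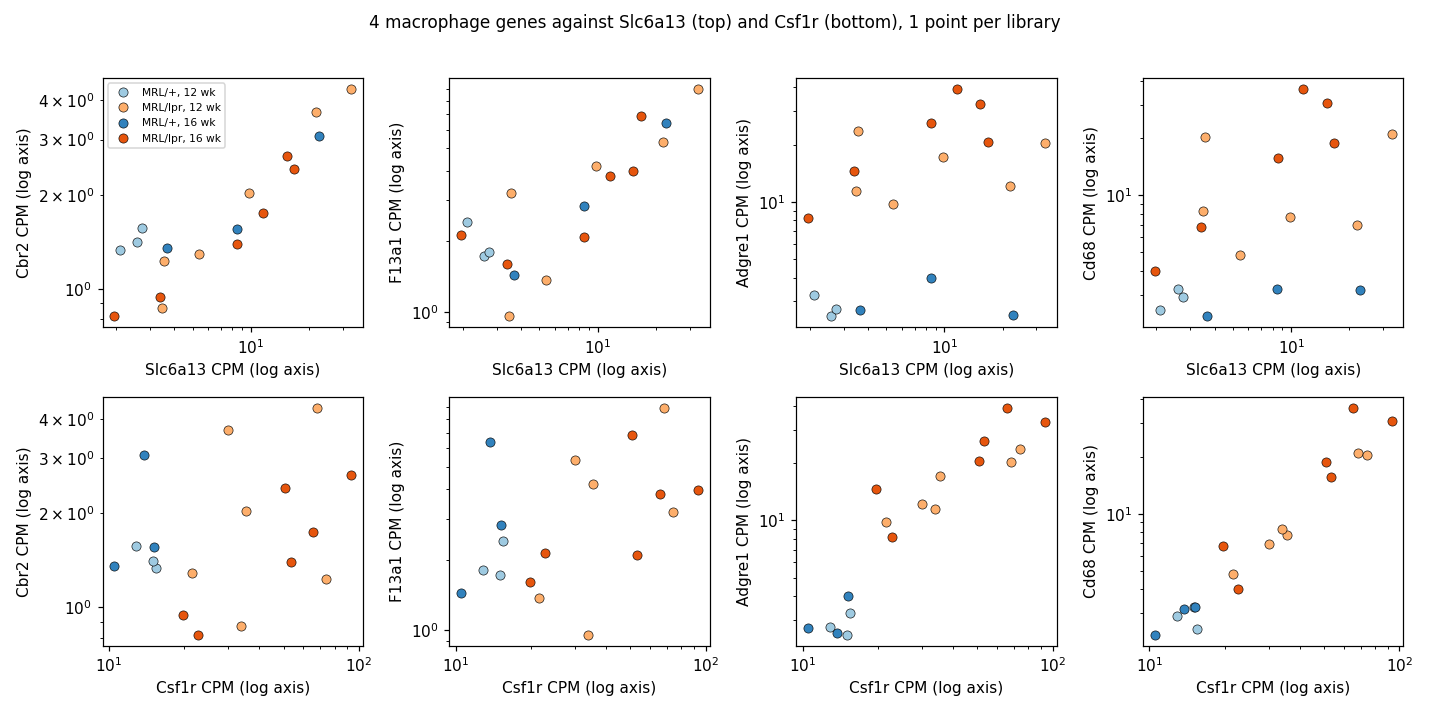
CPM of Cbr2, F13a1, Adgre1 and Cd68 against CPM of Slc6a13 (top) and of Csf1r (bottom), 1 point per library, log axes. Cbr2 and F13a1 rise with Slc6a13 in both strains, and Adgre1 and Cd68 rise with Csf1r.

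The summed CPM of 5 meningeal genes (Aldh1a2, Crabp2, Slc6a13, Slc22a6 and Foxc1) ran from 14.1 to 103 over the MRL/lpr libraries and from 13.1 to 68.0 over the MRL/+ libraries. Without the 4 libraries in which that sum was highest, a comparison added after the data were seen, Adgre1 and Lyz2 passed at both ages (adjusted p 0.027 and 0.0089 at 12 weeks, 0.039 and 0.028 at 16 weeks). The log2 fold changes at 12 weeks were then -0.06 for Cbr2, 0.33 for F13a1, 0.58 for Cd163 and 1.92 for Lyve1, each lower than with all libraries. At 16 weeks they were 0.091 for Cbr2, 0.39 for F13a1, 2.27 for Cd163 and 1.12 for Lyve1, each higher than with all libraries, and none of these 8 values passed. Cd68 at 16 weeks was 2.79, about as large as with all libraries, and did not pass (SE 0.88, adjusted p 0.12). The part of meningeal transcripts in the levels of Cbr2, F13a1, Cd163 and Lyve1 was not tested.

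Other genes known from border-associated macrophages also divided. Of 20 such genes 17 were tested, and 7 rose and 0 fell at 12 weeks (median log2 fold change 1.40), and 5 rose and 1 fell at 16 weeks (median 0.81). The membrane protein Ms4a7 rose to 19.2 ± 7.53 CPM from 1.85 ± 0.754 at 12 weeks and to 33.1 ± 17.3 from 2.87 ± 0.859 at 16 weeks (log2 fold change 3.38 and 3.53, adjusted p 0.0015 and 0.00086). Ms4a6b (4.69 and 4.84), Clec10a (3.39 and 3.17) and Clec4n (4.13 and 4.99), the last 2 being C-type lectins, also rose at both ages. Mgl2 and Timd4, a receptor for dying cells, passed at 12 weeks (2.30 and 4.74) and not at 16 weeks (0.81, adjusted p 0.34, and 3.73, adjusted p 0.054). Ltc4s, the leukotriene C4 synthase, fell by 0.71 on the log2 scale at 16 weeks (adjusted p 0.028). The scavenger receptor Stab1 (1.40, adjusted p 0.11, and 1.45, adjusted p 0.072) did not pass at either age.

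Most genes of a general macrophage list rose. Of 20 genes of the macrophage lineage and its growth factors, 14 rose at 12 weeks (median 2.60) and 17 at 16 weeks (median 2.75), with 0 lower. The complement subunit C1qa (3.47 and 3.35, adjusted p 0.0027 and 0.0020), the cytosolic protein Aif1 (3.66 and 3.60) and the protease Ctss (3.93 and 3.84) were among them. Csf1r and its ligand Csf1 (0.80, adjusted p 0.089, and 1.56, adjusted p 0.0028) passed at 16 weeks and not at 12 weeks. Of 8 genes of MHC class II-high macrophages, 6 rose at 12 weeks (median 4.66) and 7 at 16 weeks (median 5.01), among them H2-Aa (4.88 and 5.11) and Ccr2 (3.93 and 3.57). Ccr2 is counted again in the monocyte list below.

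Markers of other myeloid and lymphoid cells moved with these genes, and their part in the results was not tested. Of 7 monocyte genes tested (11 listed), 5 rose at 12 weeks and 6 at 16 weeks, and Ly6c2 stood at 38.2 ± 21.6 CPM against 0.230 ± 0.144 at 12 weeks. The summed CPM of the monocyte list, most of it Ace, ran from 1113 to 2182 in MRL/lpr and from 982 to 1591 in MRL/+. Of 8 dendritic cell genes tested (9 listed) 4 and 5 rose, and their sum ran from 10.1 to 40.2 CPM in MRL/lpr and from 5.49 to 18.8 in MRL/+. Of 4 neutrophil genes tested (11 listed) 1 rose at both ages, Csf3r. The others tested, S100a8, S100a9 and Ngp, did not pass by edgeR at 12 weeks (adjusted p 0.21, 0.27 and 0.39) or at 16 weeks (0.40, 0.76 and 0.82). Ly6g, a defining marker of neutrophils with too few counts to be tested, had 0 counts in all MRL/+ libraries. The sum of the list ran from 4.21 to 26.8 CPM in MRL/lpr and from 2.05 to 14.4 in MRL/+, where replicate 1 of 16 weeks was highest. Of 10 microglia genes 3 rose at 12 weeks and 4 at 16 weeks, with sums of 95.9 to 176 CPM in MRL/lpr and 67.2 to 92.2 in MRL/+. All 10 T and B cell genes rose at both ages, with sums of 189.5 to 8239 CPM in MRL/lpr and at most 11.8 in MRL/+.

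Lists of the tissue's own cells changed in few genes. None of 10 choroid plexus epithelium genes passed at either age (median -0.20 and -0.33), with summed CPM at 12 weeks of 199693 to 310677 in MRL/lpr and 188344 to 271192 in MRL/+. At 16 weeks the sum was lower in MRL/lpr, at 158262 to 285824 (mean 207414) against 271260 to 315948 (mean 293070) in MRL/+, and 5 of 6 MRL/lpr libraries stood below all 3 MRL/+ libraries. With libraries scaled to these genes without Ttr, 5 members were called at 16 weeks in place of 3. Over all 16598 genes tested, 7250 were then called (7224 higher) in place of 1849. None of 8 endothelium genes passed (median 0.07 and 0.66). Of 10 stromal and meningeal fibroblast genes, Dcn and Foxc1 rose at 12 weeks (0.85 and 1.10, adjusted p 0.029 and 0.049) and Lum fell by 0.91 on the log2 scale at 16 weeks (adjusted p 0.041). Of 4 lymphatic vessel genes tested (7 listed), 1 rose at 16 weeks, Flt4, which held 2 counts over the 3 MRL/+ libraries of that age. Neither of 2 platelet genes tested (10 listed) passed. Among genes of neighbouring tissues, 1 of 6 pineal genes tested (8 listed) rose at both ages, Gngt2, which monocytes also transcribe. Further, 0 of 4 pituitary genes (6 listed) and 0 of 6 cerebellum genes passed, and the 1 skeletal muscle gene tested (8 listed), Mylpf, was lower at 16 weeks.

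Age made no called difference to any member. Between 12 and 16 weeks in MRL/lpr, 0 of 10 members passed, where 0.0361% of all genes did. An unadjusted p under 0.05 was found for 0 of 10 members and for 1117 of the 16598 genes tested. The largest difference was that of Cd68, which was 0.70 higher at 16 weeks on the log2 scale (adjusted p 0.79), and Cbr2 was 0.42 lower (-0.42, adjusted p 0.83). In MRL/+, 0 of 10 members and 0% of all genes passed by edgeR, with 2173 of 16598 genes at an unadjusted p under 0.05, of which 0 were members. DESeq2 called 12 genes there and voom 1724. Lyve1 differed most, 1.91 higher at 16 weeks on the log2 scale (adjusted p 0.41). Folr2 was lower by 0.46 (-0.46, adjusted p 0.52), and its MRL/+ libraries of 16 weeks all stood below those of 12 weeks, as for 14.4% of all genes. Those of Lyz2 all stood above, as for 15.3% of all genes.

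The strain difference itself was not found to change with age for any member. The interaction of strain and age was called for 0 of 10 members and 0% of all genes, and DESeq2 and voom also called 0 genes. An unadjusted p under 0.05 by edgeR was found for 2286 of 16598 genes, of which 0 were members. Lyve1 had the largest interaction (-2.32, adjusted p 0.37), and Cd68 stood at 0.68 (adjusted p 0.68). The call on Cd68 at 16 weeks and not at 12 weeks is therefore not a shown difference between the ages.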

How the data were processed

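The authors deposited a table of raw read counts for 18 libraries. The submitters' processing notes name STAR 2.5.3a, the build GRCm38, featureCounts 1.26.0 and DESeq2 1.16.1. Strand setting, gene annotation and handling of multi-mapping reads: not given in the sources used here. From these counts, genes were filtered with filterByExpr by group, scaled with TMM and fitted with 1 mean per group over all 18 libraries by the robust quasi-likelihood method of edgeR 4.0.16 in R 4.3.3. Tests of 5 contrasts were adjusted with the Benjamini-Hochberg method, with a threshold of 0.05. SE is the standard error of the fit. RPKM were computed from the exonic lengths in the file. Log2 CPM used a prior count of 2. DESeq2 1.42.0 and limma 3.58.1 gave alternatives, beside other scalings, no low-count filter, only the groups compared, a replicate block and libraries left out. The smallest chi-square per gene among the 36 pairs of libraries within groups was 5.83, so no pair held the same library. The members and the 17 gene lists, and the rule that named list genes by smallest p or by a call that differed between ages, were chosen with earlier results of these data known. The fit was also run on simulated counts, in which no library held an excess of other tissues' transcripts. That run does not bear on the calls lost when libraries were left out. Some genes that these rules name are not reported here.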

Additional observations from a re-analysis of the deposited data

Results flagged for a closer look

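In groups of 6 libraries, 2 of 20 groups of values held a library that stood far from the other 5 by Dixon's test, and chance alone gives about 1 in 20. Both were in MRL/lpr replicate 1 of 12 weeks. Pf4 stood at 2.67 CPM there and at most 1.09 CPM in the other libraries of the group. Lyz2 stood at 2662 CPM there and at most 1101 CPM in the others. The same library held the highest Slc6a13 level of all 18 libraries, at 33.1 CPM, and the highest Lyz1 level, at 93.6 CPM.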

How the results depend on the processing

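The calls on members changed with the tool and with the control libraries. At 12 weeks 2 members were called, 5 with DESeq2, 4 with voom, 0 without the 4 libraries with pineal, cerebellum or muscle transcripts, and 2 to 4 without any 1 library. The count of 4 was without MRL/lpr replicate 6 of 16 weeks, and Mrc1 and Cd68 were the members added. At 16 weeks 3 were called, 4 with DESeq2, 4 with voom and 2 to 4 without any 1 library. The count was 2 without those 4 libraries, and 2 without the 4 libraries highest in meningeal genes. It was 5 when libraries were scaled to epithelium genes, which added Mrc1 (adjusted p 0.013) and Folr2 (adjusted p 0.020). Under that scaling 7224 of 16598 genes were called higher at 16 weeks. The median over all genes shifted to 0.30 at 12 weeks and 0.75 at 16 weeks (log2).

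Over all genes, 1055 were called at 12 weeks, 1665 with DESeq2, 3490 with voom, 34 without those 4 libraries, 434 without the 4 libraries highest in meningeal genes, and 259 to 1463 without any 1 library (259, 384 and 321 without MRL/+ replicates 1, 2 and 3 of that age). At 16 weeks 1849 were called (1410 higher and 439 lower), 7250 with epithelium scaling (7224 higher), 4849 with voom, 503 and 311 without the 2 sets of 4 libraries, and 665 to 2596 without any 1 library (771, 858 and 665 without MRL/+ replicates 1, 2 and 3). Between the ages, 6 genes were called in MRL/lpr, 84 with DESeq2, 21 with voom, 0 with only the groups compared, 0 and 2 without the 2 sets of 4 libraries and 1 to 9 without any 1 library. In MRL/+ 0 were called, 12 with DESeq2 and 1724 with voom.

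Signs were followed over the settings for the strain differences of every member. Age differences were followed only for Cbr2, Adgre1 and Cd68 in MRL/lpr and for Folr2 and Lyve1 in MRL/+. Among these, the differences that changed sign were those of Folr2, Cbr2, F13a1 and Lyve1, none of which had passed the test with all libraries. Folr2 at 12 weeks was 0.13 with epithelium scaling. Cbr2 at 12 weeks was -0.094 and -0.057 without the 2 sets of 4 libraries, which share most of their libraries. At 16 weeks Cbr2 was 0.55 with epithelium scaling, 0.23 and 0.091 without the 2 sets, and -0.48 to 0.19 without any 1 library. F13a1 at 16 weeks was 0.83 with epithelium scaling, 0.72 and 0.39 without the 2 sets, and -0.43 to 0.69 without any 1 library. Lyve1 at 16 weeks ran from -0.073 to 1.48 without any 1 library. Cbr2 between the ages in MRL/lpr was 0.31 and 0.18 without the 2 sets. The cause of these changes was not tested.

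With C1qa, C1qb and C1qc in place of Csf1r, 15 of 20 differences passed in place of 5, and those of Mrc1 (-1.85), Lyve1 (-1.67), Adgre1 (-0.96) and Cd68 (-1.57) at 12 weeks and of Adgre1 (-0.35) and Cd68 (-0.80) at 16 weeks turned negative. Without any 1 library 0 passed. Relative to Csf1r, Mrc1 at 12 weeks ran from -0.11 to 0.11, Lyve1 at 12 weeks from -0.18 to 0.51 and Cd163 at 16 weeks from -1.37 to 0.38 without any 1 library.

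Over 21 pairs of libraries from different groups with the same replicate number, the median correlation of their deviations from the group means was 0.046, with 6 pairs over 0.1. Over 96 pairs with different numbers it was -0.0030, with 35 pairs over 0.1. What libraries with the same number share besides it was not tested. With the replicate number as a block, 3 members were called at 12 weeks (Mrc1 added, adjusted p 0.049) and 3 at 16 weeks, F13a1 at 16 weeks was 0.44, and 1 gene was called between the ages in MRL/lpr.

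Depth limits Lyve1, Pf4 and Cd163 most, with as little as 1 count in a library.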
